A study of Mus musculus with 6 samples.

Results

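Toll-like receptors sense microbial molecules at the macrophage surface and inside its endosomes, and 9 of their genes together with Cd14, the co-receptor that passes lipopolysaccharide to Tlr4, were followed in a mouse macrophage line with and without an Fbxw11 vector. The 10 genes were taken from the deposited gene table by name, out of 56748 genes in all. They were split by the place where the receptor works, into 5 surface genes (Tlr1, Tlr2, Tlr4, Tlr6 and Cd14) and 5 endosomal genes (Tlr3, Tlr7, Tlr8, Tlr9 and Tlr13).

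The study compared 2 groups of 3 RNA-seq libraries from RAW264.7, a macrophage-like line that was established from mice given Abelson leukaemia virus. The Fbxw11 group carried pMSCV-Fbxw11-pGk-GFP, a lentivirally delivered vector with Fbxw11 and a GFP marker, and the control group carried the control vector, whose content is not described further than a library name with GFP. Cells of both groups were grown in the same serum-containing medium and sorted before RNA extraction, with the gate and any stimulus not given in the labels. The labels do not say whether libraries of the same group were separate cultures, so the p-values reflect how far these libraries vary, and that variation may be technical.

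Toll-like receptors carry leucine-rich repeats that bind a ligand and a TIR domain that recruits the adaptor Myd88, or Ticam1 (TRIF) in the case of Tlr3. Tlr4 uses both. Surface receptors read bacterial lipids and lipoproteins, while the endosomal ones read nucleic acids and need the chaperone Unc93b1 to reach their compartment. Fbxw11 encodes beta-TrCP2, the F-box subunit by which an SCF ubiquitin ligase is known to mark phosphorylated NF-kB inhibitors for degradation, a step downstream of these receptors.

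Reads recovered from the deposited values summed to between 16191971 and 18951653 per library. Fbxw11 itself was measured first as a check of the labels, at 35.8 to 36.5 FPKM (fragments per unit of gene length and of library size) in the control libraries and 268 to 274 FPKM in the Fbxw11 libraries. Vector and endogenous reads cannot be told apart in this value. All 8 macrophage markers examined were above 1 FPKM, and their summed level ran from 3203 to 3371 FPKM in control libraries and from 3564 to 3693 FPKM in Fbxw11 libraries. Lyz2 carried most of that sum and went from 2346 ± 70.9 to 2628 ± 39.2 FPKM (mean ± SD, n = 3). Adgre1 (F4/80) went from 55.0 ± 1.33 to 80.4 ± 2.34 FPKM, and Lyz2, Itgam and Fcgr1 rose as well. Cd68, Ptprc and Spi1 were higher in the mean but did not pass the adjusted threshold of 0.05. Csf1r alone was lower, at 154 ± 4.32 and 147 ± 2.43 FPKM, and did not pass either. All 3 natural killer cell markers were at 0 in every library. Tcf4 and Bst2, which macrophages can also express, carried the summed plasmacytoid dendritic cell list (326 to 340 FPKM in control libraries, 295 to 378 FPKM with Fbxw11), with Siglech at 0. Of the T cell list Lck alone and of the neutrophil list S100a8 alone passed 1 FPKM, with sums of at most 6.10 and 5.66 FPKM in any library, and Ly6g, S100a9, Elane and Cd8a were at 0. The erythroid, fibroblast and epithelial sums stayed at or under 0.363 FPKM. The part of other cell types in the results was not tested, and in bulk RNA fewer cells with a transcript and less of it per cell cannot be told apart. Both libraries numbered 3 stood apart from the others of their group. Pairs of libraries that include one of them had a chi-square per degree of freedom of 4.44 to 5.86 over genes, against 2.42 and 3.14 for the remaining pairs, so results were also computed without both.

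Tlr1 and Tlr6 lie next to each other on chromosome 5 and encode the alternative partners of Tlr2, and their coding sequences share long identical stretches. The longest is shown because a read that falls inside it could come from either gene. It is 229 bases long, covers coding bases 1468 to 1696 of Tlr1 (chr5:64925537-64925765, minus strand, GRCm38) and 1507 to 1735 of Tlr6 (chr5:64953828-64954056, minus strand), and lies in the single coding exon of both.
Tlr1 and Tlr6: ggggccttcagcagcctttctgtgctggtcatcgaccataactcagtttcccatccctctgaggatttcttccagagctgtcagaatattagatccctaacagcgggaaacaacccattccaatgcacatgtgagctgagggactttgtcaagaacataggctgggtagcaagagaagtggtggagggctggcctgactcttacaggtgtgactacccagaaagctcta

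Stretches of 50 bases or more that are identical in both genes covered 748 coding bases, 31.4% of Tlr1 (2385 bases) and 30.9% of Tlr6 (2418 bases), between bases 1294 and 2085 of Tlr1. Over whole transcripts, 15.4% of the 50-base words of Tlr1 and 12.3% of those of Tlr6 also occurred in a transcript of another gene. These words of Tlr1 were found in 307 other genes, Tlr6 among them, and those of Tlr6 in 2, Tlr1 among them. At 100 bases 7.89% and 7.09% were shared, each with the other of the pair. No 50-base word of Tlr2, Cd14, Tlr7, Tlr8, Tlr9 or Tlr13 was found in another gene, and 0.216% of those of Tlr4 were. Of the words of Tlr3, 5.30% were shared with Gm45542, a noncoding gene on the opposite strand that was listed at 0 in all 6 libraries. Read length and the handling of reads that match 2 genes were not given in the sources used here. Separate values of Tlr1 and Tlr6 are therefore uncertain where their sequences coincide, and their sum is given as well. The sum does not cover words shared with genes outside the pair.

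Promoter windows from RefSeq (GRCm38.p6), each from 250 bases before to 50 bases after an annotated start, were matched for 7 of the 10 genes, 9 windows in all. Those of Tlr3, Tlr6 and Tlr1, the genes that changed between the groups, are printed, with capitals marking each match to 5 short motifs searched on both strands: the interferon-stimulated response element (GAAA, 2 bases of any kind, GAAA), the gamma-activated site (TTC, 3 bases of any kind, GAA), NF-kB (GGG, 2 bases of any kind, TTTCC), AP-1 (TGANTCA) and PU.1 (GAGGAAG). Tlr1 and Tlr6 have 2 windows each, and the first listed is shown.
Tlr3 (chr8:45410331-45410630, minus strand): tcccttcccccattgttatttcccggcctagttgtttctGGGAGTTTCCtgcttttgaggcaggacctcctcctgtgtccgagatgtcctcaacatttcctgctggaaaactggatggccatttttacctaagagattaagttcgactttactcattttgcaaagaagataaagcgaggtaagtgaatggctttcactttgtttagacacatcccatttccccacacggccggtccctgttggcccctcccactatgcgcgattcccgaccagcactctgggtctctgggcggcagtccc
Tlr6 (chr5:64959117-64959416, minus strand): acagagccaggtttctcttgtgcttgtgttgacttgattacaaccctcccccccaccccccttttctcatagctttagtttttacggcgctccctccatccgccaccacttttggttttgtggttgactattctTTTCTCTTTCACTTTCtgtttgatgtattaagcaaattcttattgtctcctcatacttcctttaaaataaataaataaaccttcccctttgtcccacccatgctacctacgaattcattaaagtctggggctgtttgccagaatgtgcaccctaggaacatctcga
Tlr1 (chr5:64933509-64933808, minus strand): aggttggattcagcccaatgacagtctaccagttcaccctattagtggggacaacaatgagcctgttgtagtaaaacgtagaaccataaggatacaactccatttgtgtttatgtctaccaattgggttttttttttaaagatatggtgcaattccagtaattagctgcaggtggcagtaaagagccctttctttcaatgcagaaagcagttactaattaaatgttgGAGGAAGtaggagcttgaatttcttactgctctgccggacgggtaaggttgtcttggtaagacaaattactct

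The Tlr3 window holds 1 match, to the NF-kB letters, at positions -211 to -202 from the start, a motif that 1.63% of all 32851 promoter windows hold. The Tlr6 window holds 2 overlapping matches to the interferon-stimulated response element, which 3.44% of all windows hold, at positions -116 to -107 and -110 to -101, so its capitals run through both as a single block. In the Tlr1 window the single match is to the PU.1 letters, found in 13.6% of all windows. The second windows, not shown, hold 1 match (Tlr1) and 2 matches (Tlr6) to the gamma-activated site, which 8.30% of all windows hold. Among the windows of other receptor genes, those of Tlr13 and Tlr9 also hold the PU.1 letters, so these are not particular to Tlr1. That of Tlr9 also holds the AP-1 letters (7.81% of all windows), that of Tlr8 the gamma-activated site, and that of Tlr2 no match. A match describes letters and is not a binding site.

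The 10 genes covered a wide range of levels. In the control libraries Cd14 was by far the most abundant, at 1031 ± 12.3 FPKM, above 99.8% of all tested genes. Tlr2, the receptor for bacterial lipoproteins, followed at 53.4 ± 0.399 FPKM, then Tlr7, which reads single-stranded RNA, at 41.9 ± 0.512 FPKM and Tlr4, the lipopolysaccharide receptor, at 27.4 ± 1.17 FPKM. Tlr13, a sensor of bacterial ribosomal RNA in mice, stood at 11.7 ± 0.309 FPKM, Tlr1 at 8.60 ± 0.352, Tlr6 at 7.77 ± 0.222, Tlr3 at 5.66 ± 0.373 and Tlr9, the receptor for unmethylated CpG DNA, at 4.95 ± 0.451 FPKM. Each gene in this order had its 3 control libraries above those of the next, except that Tlr3 overlapped Tlr9. In the Fbxw11 libraries Tlr1 stood above Tlr13, Tlr13 overlapped Tlr6, and Tlr9 stood above Tlr3, which was last of the 9 detected genes.

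**Figure D1:**
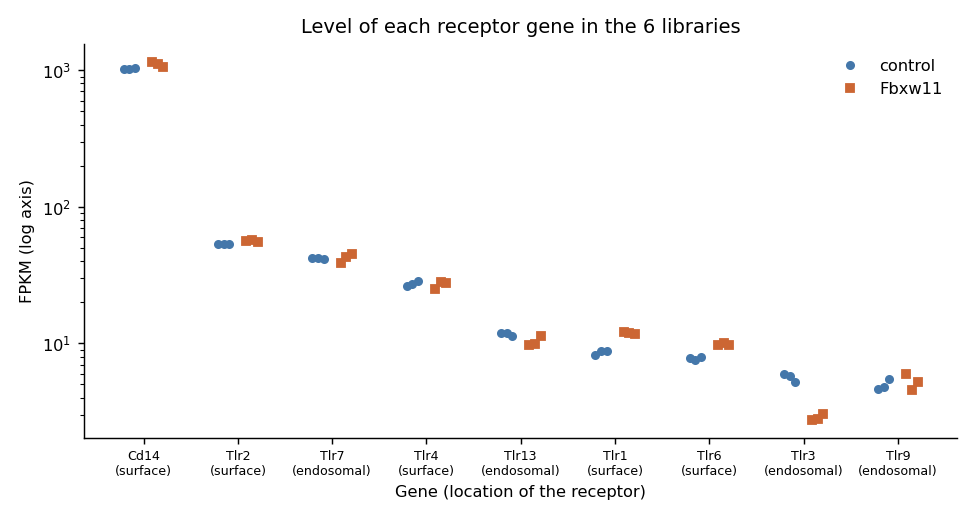
FPKM of 9 receptor genes in the 3 control (circles) and 3 Fbxw11 (squares) libraries, on a log axis, ordered by the control mean; Tlr8 is left out because it was at 0 in 5 of 6 libraries. Tlr3 is the gene whose Fbxw11 libraries sit lowest against control, and Tlr1 and Tlr6 sit higher.

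Tlr8, known in humans as an endosomal receptor for single-stranded RNA and the neighbour of Tlr7 on the X chromosome, had 2 reads in control library 3 and 0 in the other 5 libraries. A count of 0 allows up to 3 reads per library, so a difference was not detectable at this depth. It did not reach the filter of 1 FPKM that 9 of the 10 genes passed. The remaining family members were near 0 too. Tlr5, the flagellin receptor, had 1 read in a single control library, Tlr11 had none, and Tlr12 reached at most 0.0327 FPKM.

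Of the 9 tested genes 3 changed: Tlr1 and Tlr6 rose and Tlr3 fell, in limma on log2(FPKM + 1) with p-values adjusted over all 10898 tested genes. Over all genes 9.24% passed, 4.60% as rises and 4.64% as falls. By place, 2 of 5 surface genes rose and 0 fell, with a median log2 fold change of 0.10, and 1 of 4 tested endosomal genes fell and 0 rose, with a median of -0.08. The median over all tested genes was 0.0029. The surface median is the value of Cd14, which did not pass and was 0.058 on the TPM scale and -0.021 under quantile normalization. The difference between surface and endosomal genes was not tested. The libraries of the groups did not overlap for 5 of the 9 genes, against 31.1% of all tested genes. Of these 5, Cd14 was separated by little, with its highest control library at 1045 FPKM and its lowest Fbxw11 library at 1051 FPKM. Overlap was read in FPKM only. The authors' library sizes raise FPKM in Fbxw11 libraries relative to plain read sums, so which genes separate may depend on scaling. The 3 calls held under all 17 alternatives, whereas the calls over all genes shifted with scaling, from 501 rises and 506 falls (49.8% rises) to 348 and 712 (32.8%) on the TPM scale and 520 and 1039 (33.4%) with voom.

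**Figure D2:**
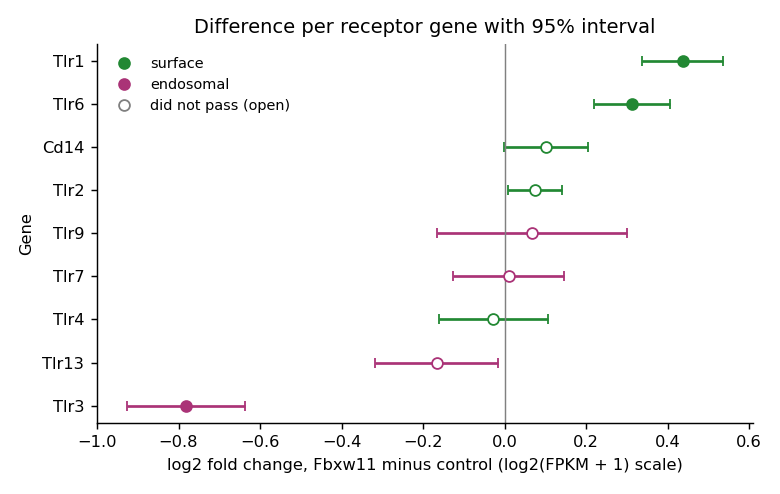
Log2 fold change (Fbxw11 minus control, log2(FPKM + 1) scale) of the 9 tested receptor genes with limma's 95% interval; filled points passed the adjusted threshold of 0.05 and open points did not, green for surface and purple for endosomal genes. Tlr1 (0.44) and Tlr6 (0.31) lie to the right of 0 and Tlr3 (-0.78) to the left, while the intervals of Cd14, Tlr9, Tlr7 and Tlr4 cross 0.

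Tlr3, the endosomal receptor for double-stranded RNA, stood at 5.97, 5.76 and 5.24 FPKM in control libraries 1 to 3 and at 2.76, 2.81 and 3.04 FPKM in Fbxw11 libraries 1 to 3. Every Fbxw11 library was lower than every control library by more than the whole range within either group. The mean was 1.97-fold lower with Fbxw11, at 2.87 ± 0.152 against 5.66 ± 0.373 FPKM. It fell by 0.78 on the log2 scale (SE 0.061, adjusted p = 0.00126), on 463 to 577 reads in each control and 234 to 270 reads in each Fbxw11 library. Among all genes that fell it ranked 9 of 506 by size. Adding 1 before taking logs understates the change of so low a gene, and a pseudocount of 0.1 gave -0.95. Voom on recovered reads, which also scales by read sums in place of the authors' library sizes, gave -1.01. Tlr3 is placed on the minus strand of chromosome 8 at 45848702 to 45864117 in the table's own coordinates, whose build is not stated.

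Tlr1, the Tlr2 partner for triacylated lipopeptides, stood at 8.20, 8.75 and 8.85 FPKM in control libraries 1 to 3 and at 12.20, 12.004 and 11.8 FPKM in Fbxw11 libraries 1 to 3. The groups did not overlap. It rose 1.39-fold (log2 fold change 0.44, SE 0.042, adjusted p = 0.00261), on 451 to 717 reads per library. Tlr6, the partner for diacylated lipopeptides, stood at 7.82, 7.52 and 7.96 FPKM in control and at 9.77, 10.1 and 9.78 FPKM in Fbxw11 libraries, again without overlap. It rose 1.27-fold (log2 fold change 0.31, SE 0.039, adjusted p = 0.00591), on 479 to 674 reads. Because the genes share sequence, their sum was also taken, which was 16.4 ± 0.405 FPKM for control and 21.9 ± 0.303 FPKM for Fbxw11, and it did not overlap between groups either. In the table's coordinates both lie on the minus strand of chromosome 5, Tlr1 at 65082022 to 65090906 and Tlr6 at 65109374 to 65117440.

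Tlr2, which pairs with both, did not pass. It stood at 53.4, 53.8 and 53.0 FPKM in control and at 56.6, 56.7 and 55.6 FPKM in Fbxw11 libraries (log2 fold change 0.07, 95% interval 0.0075 to 0.14, adjusted p = 0.166). The size of this difference depended on scaling. It was 0.032 on the TPM scale (adjusted p = 0.543), 0.038 under quantile normalization (0.453), 0.038 with voom (0.557) and 0.088 median-centred (0.112). In FPKM all 3 Fbxw11 libraries were higher, by 5.39% in the mean, and the spread within each group was small, with coefficients of variation of 0.747% and 1.01% on 2649 to 3116 reads. The partners together therefore made up a larger amount relative to Tlr2: the ratio of summed Tlr1 and Tlr6 FPKM to Tlr2 FPKM was 0.2996, 0.303 and 0.317 in control and 0.389, 0.391 and 0.387 in Fbxw11 libraries. The ratio of Tlr1 to Tlr6 FPKM was 1.11 ± 0.057 in control and 1.21 ± 0.033 in Fbxw11, with the highest control library at 1.16 and the lowest Fbxw11 library at 1.18. That gap is small beside counting errors of 4.10% for Tlr1 and 4.20% for Tlr6. The ratio also depends on how reads from the shared sequence were assigned.

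**Figure D3:**
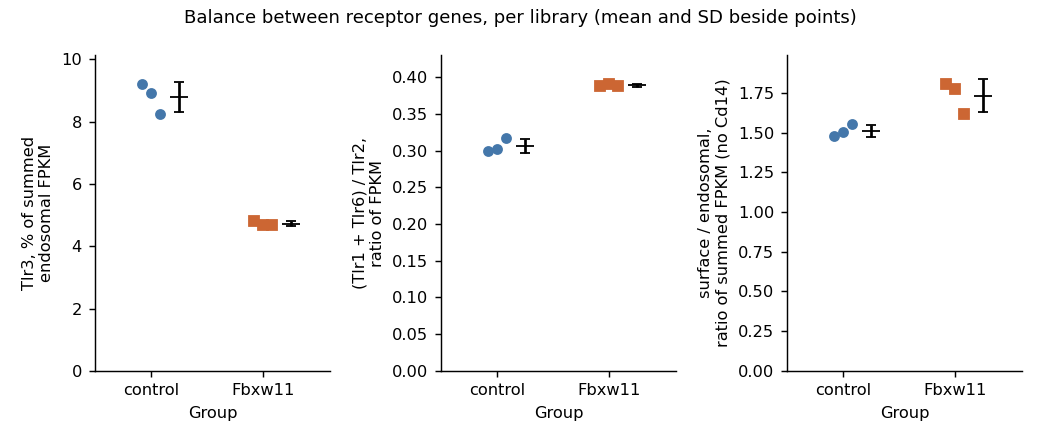
Plot of 3 balances between receptor genes, each point 1 library, with the mean and SD (n = 3) beside the points and axes from 0. Left, Tlr3 as a share of summed endosomal FPKM (8.80% in control, 4.72% in Fbxw11); middle, Tlr1 plus Tlr6 over Tlr2 (0.306 and 0.389); right, summed surface over summed endosomal FPKM without Cd14 (1.51 and 1.73).

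The lipopolysaccharide receptor gene Tlr4 stood at 26.4, 27.1 and 28.7 FPKM in control and at 24.9, 28.1 and 27.6 FPKM in Fbxw11 libraries. The groups overlapped (log2 fold change -0.03, 95% interval -0.16 to 0.11, adjusted p = 0.808), and the sign turned without control library 3 or Fbxw11 library 1. An unnamed noncoding gene, ENSMUSG00000121059, lies inside the Tlr4 gene on the same strand. Its level was 9.04 ± 1.05 FPKM (control) and 8.26 ± 1.66 FPKM (Fbxw11) (adjusted p = 0.621), and reads from unspliced Tlr4 RNA cannot be told apart from it.

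Cd14 stood at 1021, 1027 and 1045 FPKM in control and at 1152, 1117 and 1051 FPKM in Fbxw11 libraries. All Fbxw11 libraries were higher, the third by little, and the difference did not pass (log2 fold change 0.10, SE 0.043, adjusted p = 0.206), with the sign turned to -0.021 under quantile normalization. Its spread was 1.19% of the mean in control and 4.62% in Fbxw11 libraries, against a counting error of 0.559% at 29090 to 34534 reads, so the spread between libraries exceeded what read counts give. Ly96, whose product MD-2 completes the lipopolysaccharide receptor with Tlr4, stood at 23.4 ± 3.07 and 24.4 ± 1.02 FPKM (adjusted p = 0.700). Cd14 transcripts thus outnumbered Ly96 transcripts per length by 44.5 ± 5.80 to 1 in control and 45.3 ± 2.76 to 1 in Fbxw11 libraries, ratios that overlapped.

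Among the other endosomal receptors none passed. Tlr7 stood at 42.4, 42.1 and 41.4 FPKM in control and at 38.8, 42.9 and 45.2 FPKM in Fbxw11 libraries, so the control libraries lay within the Fbxw11 range (log2 fold change 0.01, 95% interval -0.13 to 0.15, adjusted p = 0.936). Its sign turned on the TPM scale, under quantile normalization and with voom. The spread of Tlr7 was 1.22% of the mean in control and 7.71% in Fbxw11 libraries, where reads alone give 1.83%. Tlr9 stood at 4.60, 4.80 and 5.46 FPKM in control and at 6.002, 4.56 and 5.20 FPKM in Fbxw11 libraries, overlapping fully (log2 fold change 0.07, 95% interval -0.17 to 0.30, adjusted p = 0.721), with the sign turned without Fbxw11 library 1.

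Tlr13 stood at 11.9, 11.9 and 11.3 FPKM in control and at 9.74, 9.85 and 11.4 FPKM in Fbxw11 libraries. Fbxw11 libraries 1 and 2 were below all controls, and library 3 was within the control range. Over all 6 libraries it did not pass (log2 fold change -0.17, SE 0.063, adjusted p = 0.169). Without Fbxw11 library 3 it passed (-0.23, adjusted p = 0.0352), as it did without both libraries numbered 3 (-0.25, adjusted p = 0.0450) and with voom (-0.22, adjusted p = 0.0406). Over its 17 alternatives the adjusted p ran from 0.0352 to 0.353.

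Within the endosomal group the share of Tlr3 was lower in every Fbxw11 library than in any control. It made up 9.21%, 8.93% and 8.26% of endosomal FPKM in control and 4.82%, 4.67% and 4.69% in Fbxw11 libraries. Tlr7 made up 65.3% ± 0.124 in control and 69.6% ± 1.84 in Fbxw11, and the ratio of Tlr7 to Tlr3 FPKM went from 7.43 ± 0.411 to 14.7 ± 0.626. The endosomal sum itself, 64.3 ± 0.708 and 60.8 ± 3.83 FPKM, overlapped between groups. The overlap came from Fbxw11 library 3 (64.9 FPKM), while Fbxw11 libraries 1 and 2 (57.3 and 60.2 FPKM) were below the lowest control (63.5 FPKM). Summed surface receptors without Cd14 stood at 97.1 ± 1.31 FPKM (control) and 105 ± 1.74 FPKM (Fbxw11) and did not overlap. Both sums use the authors' library sizes and were not recomputed on another scale.

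The genes around the 3 that changed were then read in the same fit, in a window of 150 kb on either side that was chosen after the values were seen. Around Tlr1 and Tlr6, the tested neighbours Fam114a1, Tmem156 and Klhl5 did not pass, at adjusted p = 0.745, 0.487 and 0.215. Around Tlr3 the one tested neighbour, the cytochrome gene Cyp4v3, stood at 3.84 ± 0.347 and 3.46 ± 0.252 FPKM (adjusted p = 0.377).

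The 3 protein-coding genes whose pattern over the 6 libraries was most like each changed receptor were found by Pearson's r of log2(FPKM + 1). For Tlr3 they were Pltp, a phospholipid transfer protein (r = 0.999), Hmmr, a mitotic spindle and hyaluronan-binding protein (0.998), and Fignl1, of homologous recombination (0.998). The nearest genes to Tlr1 were Tmem132a (0.999), the kinase gene Pim2 (0.998) and Socs3, an inhibitor of cytokine signalling (0.998). Those nearest to Tlr6 were Pigv, of GPI anchor synthesis (0.999), Adgre1 (0.998) and the antiviral GTPase Mx2 (0.996). The 6 points share the group difference and the scaling of each library, and these genes are the highest of all those searched, so r is a description.

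The genes that serve these receptors were read as lists, together with a list of cytosolic sensors that work beside them. In total 19 of 61 tested genes rose and 1 fell, with a median log2 fold change of 0.06, where 4.60% of all genes rose and 4.64% fell and the median was 0.0029. Without control library 1 the count of changed genes was 10 and without control library 2 it was 12, against 20 with all libraries. On the TPM scale 18 rose and 2 fell, under quantile normalization 17 rose and 2 fell, and with voom 20 rose and 4 fell. Among 18 tested adaptors and kinases 5 rose and 0 fell (median 0.04), and the number ran from 4 to 5 with any library left out. Ticam1, the adaptor of Tlr3 and Tlr4, rose by 0.38 on the log2 scale, from 18.2 ± 0.565 to 24.0 ± 1.03 FPKM (adjusted p = 0.00440), so that Tlr3 and its adaptor changed in opposite directions. Myd88, the adaptor of the other Toll-like receptors here, rose from 24.7 ± 0.399 to 30.6 ± 1.13 FPKM (0.30), Irak2, a kinase-like member of the Myd88 complex, from 15.4 ± 0.288 to 19.9 ± 0.444 FPKM (0.35) and Ikbke, a kinase that activates interferon regulatory factors, from 11.1 ± 0.291 to 14.3 ± 0.591 FPKM (0.34).

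**Figure D4:**
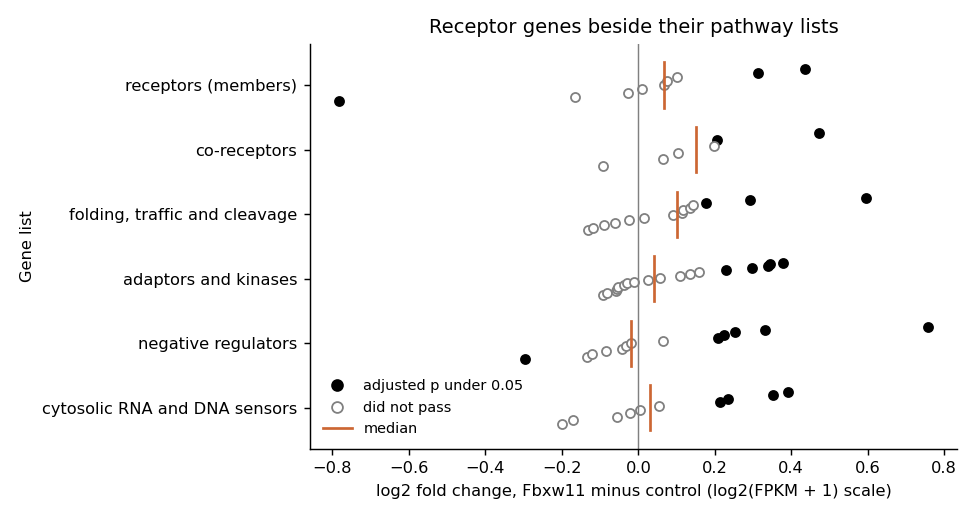
Log2 fold change (Fbxw11 minus control, log2(FPKM + 1) scale) of each tested gene in the receptor set and in 5 lists of genes that serve or neighbour the pathway; filled points passed the adjusted threshold of 0.05, open points did not, and vertical bars are list medians. Tlr3 (-0.78) is the lowest point and Irak3 (0.76) the highest.

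Of 6 tested co-receptor genes 2 rose and 0 fell (median 0.15). Itgam, the CD11b subunit of complement receptor 3, rose by 0.47 on the log2 scale, from 19.8 ± 0.746 to 27.9 ± 1.22 FPKM. Cd36, a scavenger receptor that assists Tlr2 with Tlr6, rose by 0.21 on that scale, from 10.4 ± 0.240 to 12.2 ± 0.364 FPKM (adjusted p = 0.0234), and lost its call when any library was left out. Of 14 genes for folding, traffic and cleavage of the receptors 3 rose and 0 fell (median 0.10), and 1 rose without control library 1 or without control library 2. The direction counts shifted with scaling, to 2 rises and 1 fall on the TPM scale, 1 and 1 under quantile normalization and 3 and 1 with voom. Slc15a3, a lysosomal histidine and peptide transporter, rose from 123 ± 5.08 to 186 ± 6.02 FPKM (0.60) and Lrrc59, an endoplasmic reticulum protein tied to the traffic of endosomal receptors, from 88.8 ± 4.23 to 109 ± 3.45 FPKM (0.29), a call lost without control library 1 or 2 and under quantile normalization. Ctsl, a protease that cleaves endosomal receptors, rose from 183 ± 3.30 to 207 ± 7.76 FPKM (0.18), a call lost under 10 of 17 alternatives. Unc93b1, named outside the rule for its role, stood at 95.7 ± 3.33 and 104 ± 3.36 FPKM (adjusted p = 0.146).

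Of 13 tested negative regulators 5 rose and 1 fell (median -0.02). Irak3 (IRAK-M), which holds back Myd88 signalling, rose most, by 0.76 on the log2 scale (SE 0.049, adjusted p = 0.000814), from 13.9 ± 0.442 to 24.3 ± 1.33 FPKM. Tnfaip3 (A20) rose by 0.33, Il1rl1 (ST2) by 0.25 and Pik3ap1 (BCAP) by 0.21 on the log2 scale. The call of Il1rl1 was lost without control library 1 (adjusted p = 0.0542) and without both libraries numbered 3 (0.0572), and that of Pik3ap1 without control library 1 (0.0514) or control library 2 (0.0508). The member that fell was Cd300lf, an inhibitory surface receptor named after its value was seen, from 5.88 ± 0.401 to 4.61 ± 0.296 FPKM (adjusted p = 0.0345). Its call was lost under 7 of 17 alternatives, among them leaving out any single library other than Fbxw11 library 3. Without control library 1 the list had 2 changed genes, without control library 2 it had 3, and without Fbxw11 library 2 or without both libraries numbered 3 it had 4.

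Of 10 tested genes listed as cytosolic RNA and DNA sensors, 4 rose and 0 fell (median 0.03), while with voom 4 rose and 2 fell. The list also holds adaptors and Nod2, which do not themselves detect RNA or DNA. Dhx58 (LGP2) rose by 0.35 on the log2 scale, from 47.8 ± 2.26 to 61.2 ± 1.12 FPKM (adjusted p = 0.00503) and Ifih1 (MDA5), which like Tlr3 binds double-stranded RNA, from 36.5 ± 0.789 to 43.1 ± 0.758 FPKM (0.23, adjusted p = 0.00846). Nod2, which senses a bacterial cell wall peptide, rose by 0.39, with its call lost under 8 of 17 alternatives. Zbp1 rose by 0.21. Its call was lost under 3 alternatives, which were leaving out control library 1 (adjusted p = 0.0677), Fbxw11 library 2 (0.0552) or both libraries numbered 3 (0.0684). Without control library 1 the list had 2 changed genes, as it had without both libraries numbered 3.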

How the data were processed

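RNA-seq of 6 RAW264.7 libraries (3 control, 3 Fbxw11) was deposited as a single gene table in FPKM, which the authors scaled by gene length and library size, for 56748 genes. The submitters' processing notes name build mm10. Of 52088 gene identifiers shared with GENCODE vM21 of that build, 2.85% had the same position (96.8% the same span), and none of the 10 receptor genes did, so the table's coordinates are printed with their build not stated. Aligner, counter and annotation release were not given in the sources used here.

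FPKM times gene length was a whole multiple of 1 step per library (100% of values within 0.02 reads), which gave reads per gene. Library sizes used by the authors were 1.01 to 1.02 times the read sum in control and 0.987 to 0.993 times in Fbxw11 libraries, which raises FPKM in the latter relative to plain sums. Reads are not independent molecules, so read floors cover counting error only.

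Genes averaging 1 FPKM or more were tested on log2(FPKM + 1) with limma 3.58.1 in R 4.3.3 (trend, two-sided, Benjamini-Hochberg adjustment over all 10898 genes, threshold 0.05). "Rose" and "fell" mark genes past it. Errors are SD over 3 libraries, or SE of a log2 fold change. From each pathway list the 4 changed genes with the smallest p were named, filled to 2 with the most abundant. Of the marker lists, 1 is not reported here. The receptor genes and the lists were chosen with earlier results of these data known. Pseudocounts, filters, scalings, voom, a replicate block and leaving out each library were tried as alternatives.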

Additional observations from a re-analysis of the deposited data

How the results depend on the processing

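The rises of Tlr1 and Tlr6 and the fall of Tlr3 kept direction and call under all 16 alternatives listed at the start and the 1 added after seeing the data (both libraries numbered 3 left out). Over these the log2 fold change ran from 0.41 to 0.48 for Tlr1 (adjusted p 0.000383 to 0.0193), from 0.29 to 0.35 for Tlr6 (0.00401 to 0.0331) and from -1.01 to -0.75 for Tlr3 (5.48e-06 to 0.0124). The number of changed receptor genes was 3, or 4 with Tlr13. Genes that did not pass turned sign as follows: Cd14 to -0.021 under quantile normalization, and Tlr7 to -0.033 on the TPM scale, -0.026 under quantile normalization, -0.026 with voom and -0.048 without both libraries numbered 3. With single libraries left out, Tlr4 ran from -0.060 to 0.023, Tlr7 from -0.038 to 0.070 and Tlr9 from -0.018 to 0.15. Tlr4 turned to 0.0046 without control library 3 and Tlr7 to -0.0015 without Fbxw11 library 2.

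Over all genes 1007 changed, 596 with no filter on low FPKM, where 25297 genes were tested, 1559 with voom, 410 to 801 with a library left out and 698 without both libraries numbered 3. The cause of the voom count was not tested. Over the pathway lists 20 changed, 10 to 18 with a library left out and 14 without both libraries numbered 3. Same-numbered libraries deviated together with r = 0.036, 0.041 and 0.189, and control library 1 correlated best with Fbxw11 library 2 (0.148), so the numbers were not taken to pair samples. With the replicate block 621 genes and the 3 receptor genes passed. The median log2 fold change of all genes was 0.0029 in the main fit, -0.038 on the TPM scale, -0.034 with voom and 0.016 median-centred. List medians as small as 0.03 or 0.04 are of the size of such shifts. Read depth limits Tlr8, Tlr5, Tlr11 and Tlr12, at 0 to 2 reads in most libraries.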
